A study of Mus musculus with 6 samples.

Results

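The genes described here are 35 genes of sterol and fatty acid synthesis and of its control, taken from a fixed list of symbols and found by position in mouse spinal cord oligodendrocyte precursor cells (OPCs). They fall into 18 enzymes of the sterol pathway, 8 enzymes of fatty acid synthesis, 5 genes around the sterol regulatory element binding proteins (SREBPs), and 4 genes around the liver X receptors (LXRs), of which Nr1h2 encodes a receptor itself and Abca1, Abcg1 and Mylip are targets. All 35 were quantified, among 31266 genes in all, and all 35 passed the minimum mean of 1 FPKM (sequenced fragments per length of transcript, scaled by the size of the library) that 12045 genes met.

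The cells came from C57BL/6 pups at postnatal day 0.5, were selected with magnetic beads for A2B5, a ganglioside epitope of glial precursors, and were kept for 16 h in culture before RNA was taken. There were 3 libraries from cells labelled Gde3 KO, a knockout of the GPI-anchor-cleaving enzyme GDE3 (gene Gdpd2), and 3 from WT cells. Cells of both genotypes grew on poly-L-lysine and laminin, and their medium held 5 µM forskolin, which raises cyclic AMP, CNTF and PDGF at 10 ng/mL each, sodium pyruvate, antibiotic and the B27 and N2 supplements. The labels do not say which part of Gdpd2 is missing in KO animals, whether the KO is constitutive, or how many pups went into a library, so the spread between libraries may be partly technical. The study as a whole asks how GDE3 acts on the proliferation of these precursors through the receptor of CNTF. No lipid, cholesterol or protein measurement was used here.

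Sterol synthesis starts from acetyl-CoA, runs through mevalonate and farnesyl diphosphate to squalene, closes the ring at lanosterol and ends at cholesterol, while fatty acid synthesis uses the same acetyl-CoA to build palmitate, which is then lengthened and desaturated. SREBPs are membrane-bound transcription factors that SCAP escorts out of the endoplasmic reticulum when sterols are scarce and that INSIG proteins hold back when sterols are plentiful; SREBP-2 acts mostly on sterol genes and SREBP-1c mostly on fatty acid genes. LXRs are activated by oxidised sterols and turn on, among others, genes that move sterol out of cells. Oligodendrocyte lineage cells make much of their own cholesterol and fatty acid, the main lipids of myelin.

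The assemblies held 32098 to 41319 transcripts in KO libraries and 32693 to 56807 in WT libraries, and relative depth was 0.882 to 0.988 in KO and 0.759 to 1 in WT, with WT replicate 1 the shallowest and the most fragmented. Of its transcripts 36.8% were under 300 nt, against 2.16% to 6.61% in the other 5 libraries. The targeted gene did not separate the genotypes: Gdpd2 had 0.667, 1.497 and 1.78 FPKM in KO replicates 1 to 3, against 0, 2.79 and 2.85 FPKM in WT replicates 1 to 3, so the genotypes used below are those of the labels. The OPC markers were high in every library, with summed levels of 1311 to 1569 FPKM in KO and 1179 to 1687 FPKM in WT and with Olig1, a transcription factor of the lineage, at 356 to 518 FPKM over the 6 libraries.

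Promoters of some of the genes are shown because SREBPs and LXRs act there. Of the 35 genes, 27 have at least 1 promoter window in the RefSeq table of GRCm38.p6, with 33 windows in all, each running from 250 bases before to 50 bases after an annotated start. Printed are the 250 bases before the start, 5′ to 3′ on the gene's strand, of Hmgcs1 (chr13:119690101-119690350, plus strand), of the downstream start of Srebf1 (chr11:60210472-60210721, minus strand), of Abca1 (chr4:53159896-53160145, minus strand) and of Fasn (chr11:120824548-120824797, minus strand). Capitals mark matches, on either strand, to TCACNCCAC (a sterol regulatory element core), CCAAT (the NF-Y box, reading ATTGG on the other strand), CACGTG (an E-box) and a direct repeat of the kind LXRs bind, which stands here as the run of 15 capitals that starts with TGACC. Its pattern was written after its letters had been seen in the Srebf1 window, so its presence there is no finding. In the Fasn window a CCAAT on each strand overlaps in 1 run of capitals.
Hmgcs1: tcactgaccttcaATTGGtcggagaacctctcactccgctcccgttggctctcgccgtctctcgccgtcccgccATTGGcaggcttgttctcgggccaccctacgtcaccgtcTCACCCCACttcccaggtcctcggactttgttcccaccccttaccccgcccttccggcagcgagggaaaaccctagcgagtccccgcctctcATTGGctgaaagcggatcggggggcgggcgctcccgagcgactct
Srebf1, downstream start: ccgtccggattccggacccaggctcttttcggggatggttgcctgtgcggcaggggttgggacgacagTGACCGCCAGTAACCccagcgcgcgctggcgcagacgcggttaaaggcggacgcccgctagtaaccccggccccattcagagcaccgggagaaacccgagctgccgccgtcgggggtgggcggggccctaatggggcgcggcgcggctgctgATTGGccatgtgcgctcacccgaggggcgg
Abca1: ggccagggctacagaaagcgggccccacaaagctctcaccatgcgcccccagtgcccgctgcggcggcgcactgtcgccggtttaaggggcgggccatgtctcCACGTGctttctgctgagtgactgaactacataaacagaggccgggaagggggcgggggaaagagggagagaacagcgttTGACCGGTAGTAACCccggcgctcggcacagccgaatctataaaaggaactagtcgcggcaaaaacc
Fasn: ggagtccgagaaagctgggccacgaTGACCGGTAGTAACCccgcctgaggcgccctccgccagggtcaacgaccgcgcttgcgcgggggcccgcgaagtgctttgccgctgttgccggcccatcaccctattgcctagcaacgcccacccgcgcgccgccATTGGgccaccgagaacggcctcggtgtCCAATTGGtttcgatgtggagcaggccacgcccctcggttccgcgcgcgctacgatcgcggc
In these windows the direct repeat starts 182 bases before the downstream start of Srebf1, 67 before that of Abca1 and 225 before that of Fasn. It occurs in 6 of all 32851 promoter windows (0.0183%), the others lying at Acsl3 and at a locus with no gene name. These 6 include the Srebf1 window seen before the pattern was written, so the share is no independent background rate. The sterol element core occurs in 1 of the 33 windows, that of Hmgcs1, 137 bases before the start, and in 1.24% of all windows. CCAAT occurs in 21 of the 33 windows (63.6%), against 37.4% of all windows, and CACGTG in 7 (21.2%), against 7.15%. These matches describe the letters in the windows and are not evidence of binding in these cells. Each window printed here holds at least 1 match. The windows of Acat2 and of the Srebf1 start at 60220627 hold none and are not printed.

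The gene value used here is FPKM averaged over those exonic bases of a gene that belong to no other annotated gene, so it falls where part of a gene was not assembled. A value over coding bases alone was added after the files had been seen, because many of these genes had long last exons that were assembled in some libraries only. The differences plot gives both for every gene, the text gives 1 or both, and levels are compared between genes over coding bases. All 35 genes were found in every library. Over coding bases the sterol enzymes ran from a mean over 6 libraries of 15.7 FPKM to one of 366 FPKM, the fatty acid enzymes from 30.9 to 701 FPKM, the SREBP genes from 22.7 to 99.8 FPKM and the LXR genes from 3.48 to 23.2 FPKM. Scd2, the main stearoyl-CoA desaturase of brain, was the highest of the 35, followed by Fdps (farnesyl diphosphate synthase), Hmgcs1 (cytosolic HMG-CoA synthase), Msmo1 (methylsterol monooxygenase) and Fads2 (a desaturase of polyunsaturated fatty acids). Fdps stands on only 136 unshared coding bases. Abcg1, a sterol exporter, and Mylip, a ubiquitin ligase of lipoprotein receptors, were the lowest.

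**Figure D1:**
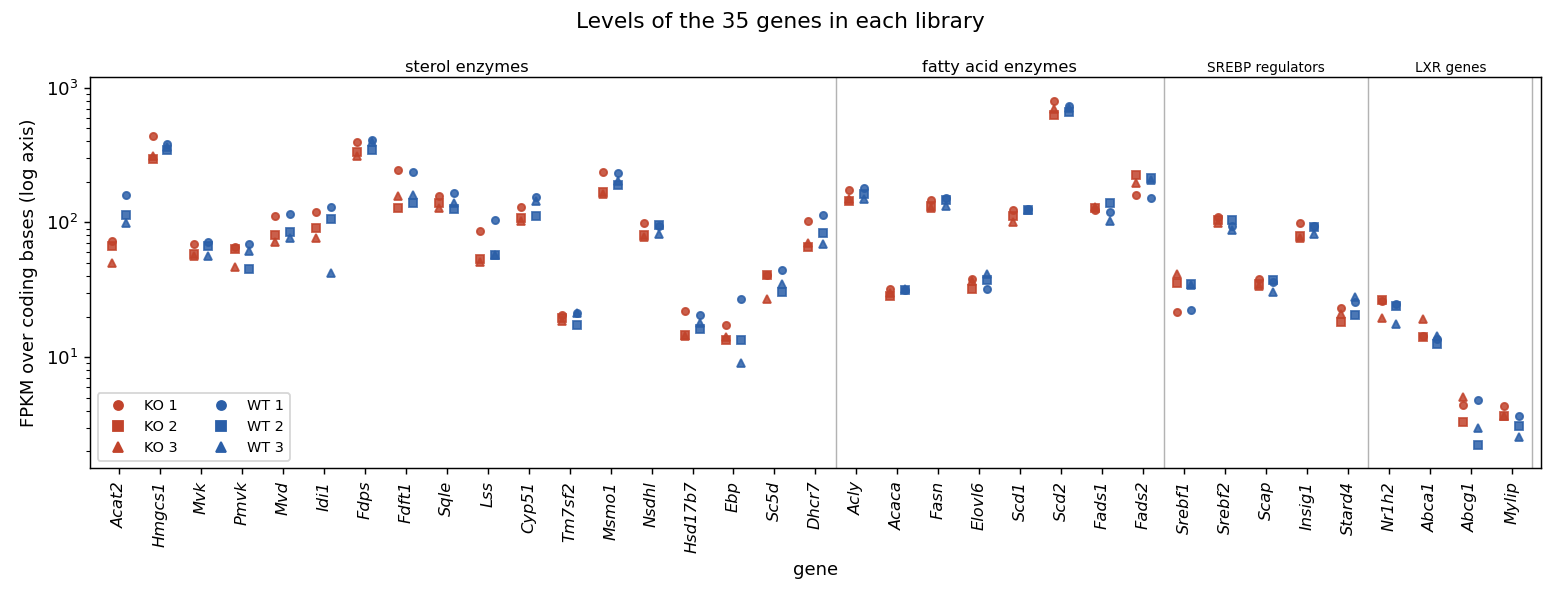
FPKM over coding bases (log axis) of the 35 genes, grouped by role, with KO libraries to the left of WT libraries for each gene and 1 symbol per library. Scd2 stands highest, with 625 to 793 FPKM in KO and 656 to 729 FPKM in WT, and Abcg1 and Mylip lowest, below 6 FPKM in each library.

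No gene of the 35 passed the test of KO against WT. In limma's test on log2(FPKM + 1) over all 12045 tested genes, with Benjamini-Hochberg adjustment at 0.05, 0 of the 35 genes were called, against 1 of all tested genes (0.0083%), which is no member of the list and is not reported here. That 1 gene was not called with the replicate number as a block. An unadjusted p under 0.05 was reached by 1 of the 35, Acat2, and by 195 of all tested genes. If no gene differed, 602 of all tested genes would be expected to reach it. With the replicate number as a block, 1 of the 35 and 510 of all tested genes did. The fit with genotype alone leaves differences between replicate numbers in its error, so the lack of calls is no evidence that the genotypes are alike. Over coding bases 0 of the 35 were called, against 1 of 11908 genes (0.0084%), and again 1 of the 35 had an unadjusted p under 0.05. For each gene below other than Acat2 the adjusted p was 0.9999 over all unshared bases.

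The small differences leaned one way in the enzymes and the other way in the LXR genes. The median log2 difference (KO minus WT) was −0.15 for the sterol enzymes, with 15 of 18 lower in KO, −0.10 for the fatty acid enzymes, with 6 of 8 lower, −0.03 for the SREBP genes, with 3 of 5 lower, and 0.22 for the LXR genes, with 0 of 4 lower. Over all tested genes the median was −0.005, with 51.4% lower in KO. Over coding bases the median was −0.08 for the sterol enzymes (16 of 18 lower), −0.06 for the fatty acid enzymes (5 of 8 lower), 0.04 for the SREBP genes (2 of 5 lower) and 0.23 for the LXR genes (0 of 4 lower), against 0.003 and 48.98% lower over all genes. When FPKM was summed over the transcripts of a gene, the median of the LXR genes was −0.06, and that of the SREBP genes was 0.01 with quantile normalization. The lists were chosen with results of these libraries known, so their direction is a description with no test. Leaving out WT replicate 1 brought the median of the sterol enzymes to −0.03, and leaving out KO replicate 1 brought it to −0.25.

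**Figure D2:**
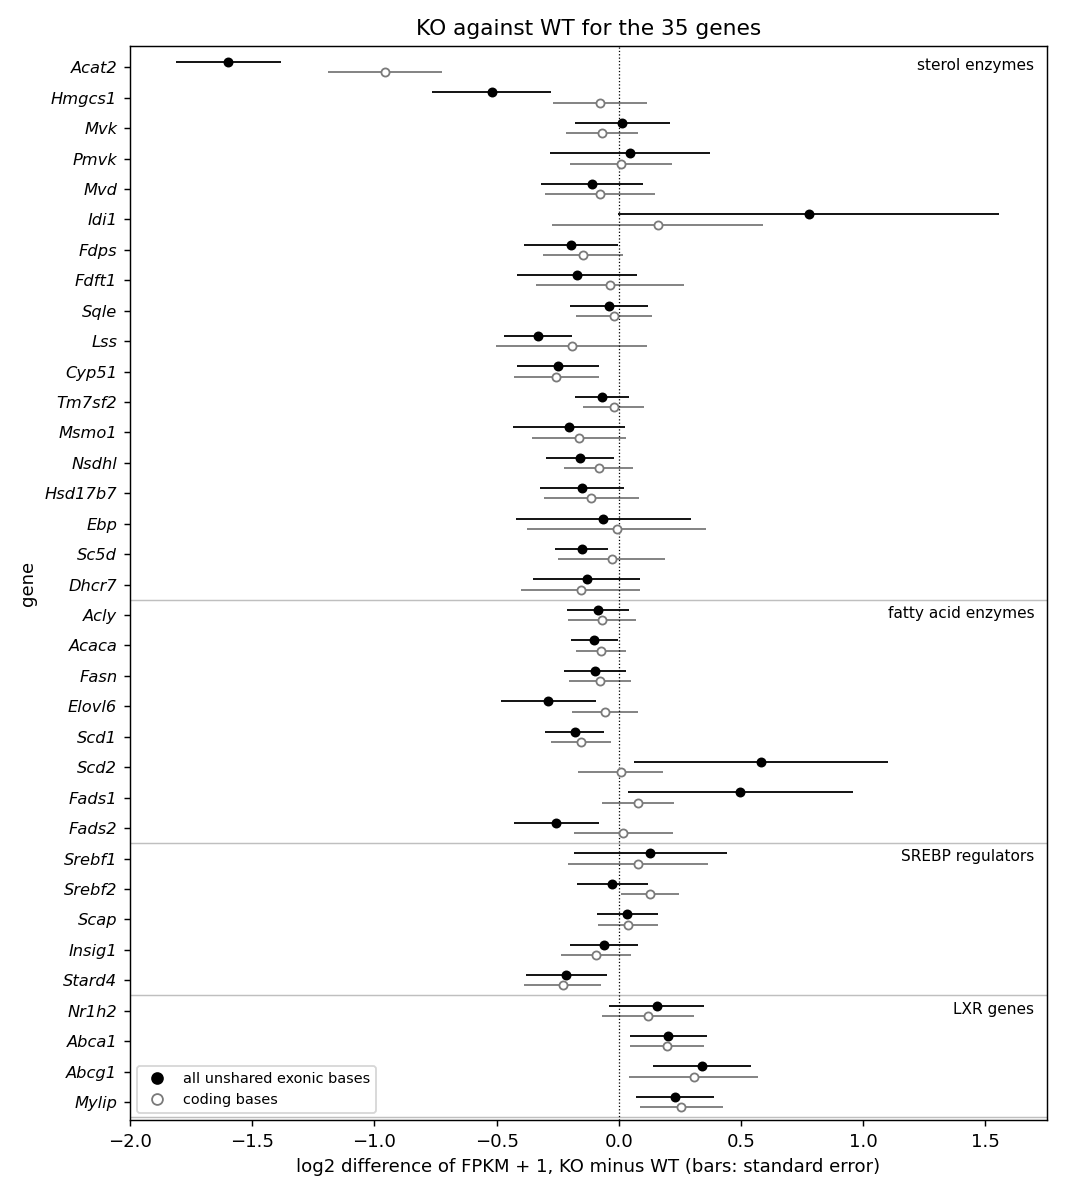
Log2 difference in FPKM + 1, KO minus WT, with its standard error (limma), for the 35 genes over all unshared exonic bases (filled) and over coding bases (open). Acat2 stands apart at −1.60 and −0.96, and the filled and open values part most for Acat2, Idi1, Scd2, Hmgcs1 and Fads1.

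Counted by overlap, 5 of the 35 genes had all KO libraries below all WT libraries (Acat2, Hmgcs1, Lss, Acaca and Scd1), against 3.03% of all tested genes, and none of the 35 had all KO libraries above, against 2.03% (5.06% in either direction). Over coding bases only Acat2 of the 35 kept all KO libraries below (2.7% of all genes), and Mylip had all KO libraries above (2.67%, with 5.37% of all genes in either direction). The margin for Mylip was slight, with 3.637 FPKM in KO replicate 3 and 3.628 FPKM in WT replicate 1. In that WT library 81.6% of the Mylip coding bases were assembled, against 100% in the others. Compared within same-numbered pairs, 17 of the 35 were lower in KO in all 3 pairs over all unshared bases, 12 of them sterol enzymes, against 15.8% of all tested genes. Over coding bases 8 of the 35 were lower in all 3 pairs, 5 of them sterol enzymes, against 13.2%. The share of the 35 that was lower in every pair thus depended on which bases were averaged.

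The steps from acetyl-CoA to farnesyl diphosphate hold 7 genes. The first of them, Acat2, encodes the cytosolic thiolase that joins a pair of acetyl-CoA molecules, and lies on chromosome 17 at 12942890 to 12960747, minus strand (mm10, protein-coding, 9 exons). Acat2 had 37.5, 34.5 and 25.6 FPKM in KO replicates 1 to 3, against 126.1, 94.1 and 82.2 FPKM in WT replicates 1 to 3. All 3 KO libraries lay well below all 3 WT libraries. The log2 difference was −1.60 ± 0.22 (SE; limma adjusted p = 0.699).

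The difference in Acat2 came with a difference in how far the gene was assembled. Its last exon, of 1143 nt, was assembled to 1.7%, 1.7% and 3.6% in KO replicates 1 to 3, against 79.6%, 84.5% and 83.6% in WT replicates 1 to 3. The assembled transcripts ended 1102 to 1123 nt short of the annotated end in KO and 177 to 233 nt short in WT, while all 8 introns were found in each of the 6 libraries. Over coding bases Acat2 had 73.0, 66.8 and 49.7 FPKM in KO, against 161, 113 and 99.4 FPKM in WT. The groups again did not overlap, with a log2 difference of −0.96 ± 0.23 (SE; limma adjusted p = 1.00), and 87.6% to 89.3% of the coding bases were assembled in KO against 100% in WT. Over the bases assembled in all 6 libraries the log2 difference was −0.77. Whether fewer reads or an earlier 3′ end of the transcript lie behind the shorter assembly was not tested. Acat3, a near-identical copy next to Acat2, had 13.2, 0 and 0 FPKM in KO replicates 1 to 3, against 0, 9.19 and 12.8 FPKM in WT replicates 1 to 3, with overlapping groups, and how reads shared by the copies were divided is uncertain. The mitochondrial thiolase Acat1 had 43.0, 45.2 and 30.7 FPKM in KO and 46.6, 28.3 and 48.4 FPKM in WT, with overlapping groups.

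**Figure D3:**
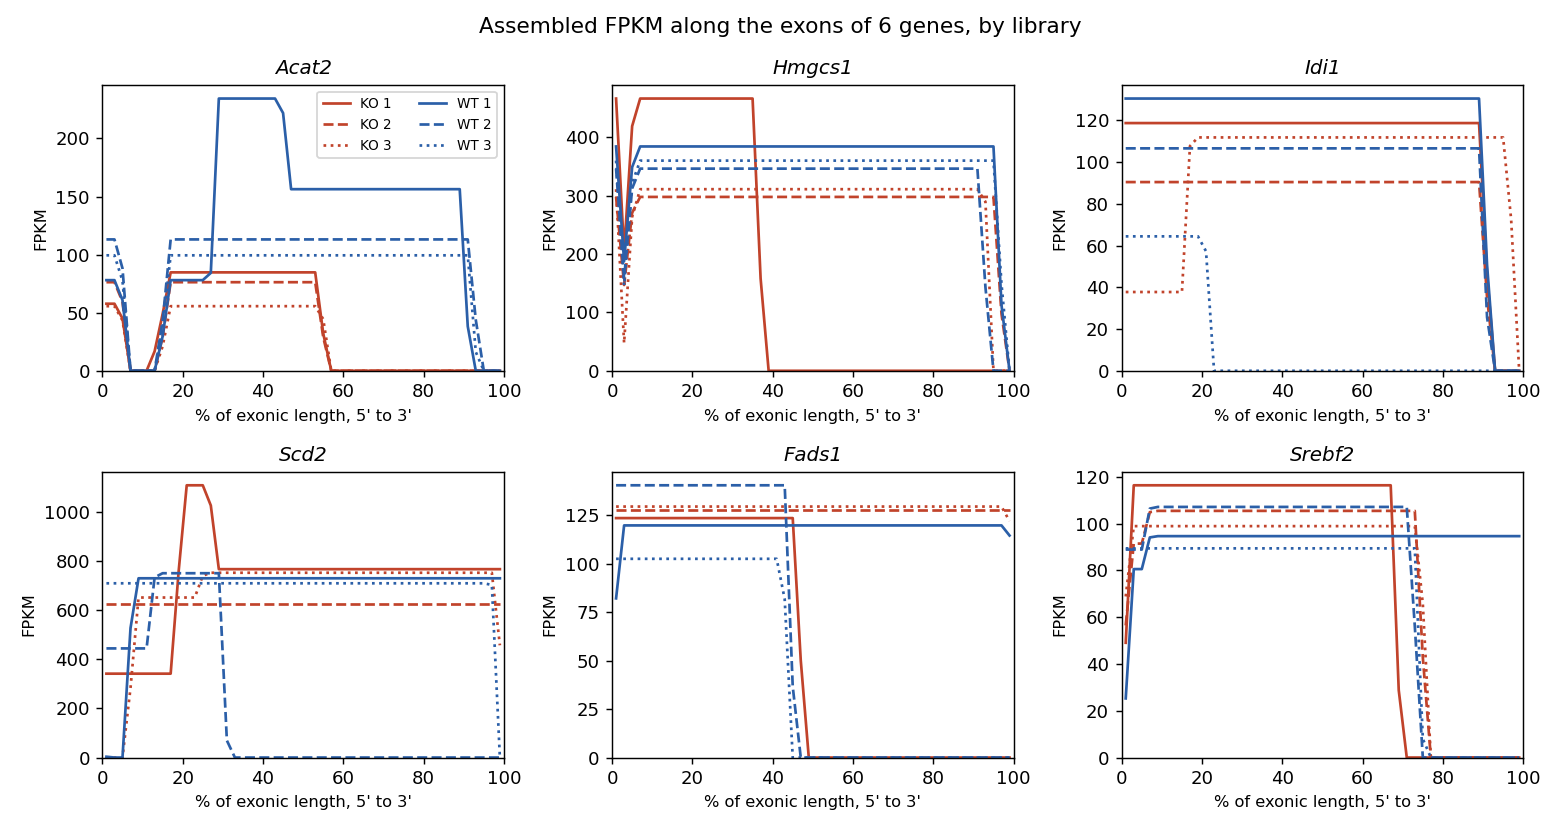
FPKM of assembled transcripts along the joined exons of 6 genes, from 5′ to 3′ in percent of exonic length, with 1 line per library (KO red, WT blue). The Acat2 lines end near the middle of the gene in the 3 KO libraries and near 90% in the 3 WT libraries, and in the other genes the line of 1 or more libraries drops to 0 early: Hmgcs1 in KO replicate 1, Idi1 in WT replicate 3, Scd2 in WT replicate 2, Fads1 in KO replicate 1 and WT replicates 2 and 3, and Srebf2 in all but WT replicate 1.

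Hmgcs1, the enzyme that adds the third acetyl group to make HMG-CoA, lies on chromosome 13 at 119690379 to 119708260, plus strand. It had 166, 284 and 286 FPKM in KO, against 367, 317 and 344 FPKM in WT, which gives a log2 difference of −0.52 ± 0.24 (SE; limma). In KO replicate 1, the lowest library, the last exon of 1872 nt was assembled to 1.55%, against 88.9% to 95.1% in the other libraries. Over coding bases the same library was the highest, and Hmgcs1 had 440, 298 and 311 FPKM in KO against 384, 346 and 360 FPKM in WT, with overlapping groups (log2 difference −0.08 ± 0.19). An exon of 59 nt (chromosome 13, 119694989 to 119695047) was held by 33.5%, 40.2% and 0% of the Hmgcs1 FPKM in KO replicates 1 to 3, against 39.6%, 35.8% and 29.9% in WT replicates 1 to 3. KO replicate 3 alone lacked a transcript with this exon.

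In the next enzymes of this stretch the genotypes overlapped. Mvk and Pmvk phosphorylate mevalonate. Over coding bases Mvk had 69.6, 58.6 and 56.1 FPKM in KO and 71.2, 66.5 and 55.9 FPKM in WT, and Pmvk had 65.4, 63.3 and 47.0 FPKM in KO and 69.4, 45.2 and 60.9 FPKM in WT. Mvd, which makes isopentenyl diphosphate, had 111, 80.2 and 72.0 FPKM in KO and 115, 84.9 and 77.0 FPKM in WT, lower in KO in each pair and highest in both replicate 1 libraries. Idi1, the isomerase of isopentenyl diphosphate, had 119, 90.5 and 76.7 FPKM in KO and 130.5, 107 and 42.2 FPKM in WT. In WT replicate 3, the lowest, 65.5% of the coding bases of Idi1 and 1.03% of its last exon of 2134 nt were assembled, and over all unshared bases that library had 14.1 FPKM, against 82.1 to 119 FPKM in the other 5. Fdps had 398, 331 and 314 FPKM in KO and 411, 346 and 394 FPKM in WT over coding bases, again lower in KO in each pair, with overlapping groups.

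From farnesyl diphosphate to lanosterol, 3 enzymes act. Lss, which folds oxidosqualene into lanosterol, lies on chromosome 10 at 76531588 to 76557138, plus strand. Lss had 41.4, 53.1 and 50.5 FPKM in KO, against 67.6, 57.5 and 57.4 FPKM in WT, all KO libraries below all WT libraries, with a log2 difference of −0.33 ± 0.14 (SE; limma). In both replicate 1 libraries the last exon of 2543 nt was largely missing, at 2.24% assembled in KO replicate 1 and 33.5% in WT replicate 1. Over coding bases Lss had 85.6, 53.1 and 50.5 FPKM in KO and 104, 57.5 and 57.4 FPKM in WT, still lower in KO in each pair but with overlapping groups (log2 difference −0.19 ± 0.31). Fdft1, squalene synthase, had 246, 129 and 157 FPKM in KO and 237, 141 and 161 FPKM in WT over coding bases. Sqle, squalene epoxidase, had 156, 140.1 and 127 FPKM in KO and 166, 126 and 139 FPKM in WT. In Fdft1 and Sqle the libraries numbered 1 were the highest of each genotype and KO and WT overlapped.

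The 8 enzymes from lanosterol to cholesterol were each lower in KO by 0.06 to 0.25 on the log2 scale over all unshared bases, and 6 of them were lower in all 3 pairs. Over coding bases all 8 were again lower on average, but by as little as 0.01, and 1 of 8 was lower in all 3 pairs. That 1 was Cyp51, the lanosterol demethylase (chromosome 5, 4081145 to 4104746, minus strand). It had 119, 98.1 and 94.2 FPKM in KO, against 135, 102 and 135 FPKM in WT, a log2 difference of −0.25 ± 0.17 (SE; limma), and a difference of −0.25 ± 0.17 over coding bases. The KO libraries were lower in each pair, yet KO replicate 1 exceeded WT replicate 2.

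Among the other demethylation enzymes, Msmo1 had 238, 168 and 161 FPKM in KO and 234, 190 and 204 FPKM in WT over coding bases. Nsdhl, the sterol dehydrogenase that acts with it, had 98.7, 81.3 and 77.9 FPKM in KO and 94.6, 96.2 and 81.6 FPKM in WT. Hsd17b7, the keto-reductase of the same complex, had 22.0, 14.6 and 14.3 FPKM in KO and 20.4, 16.2 and 17.8 FPKM in WT. Each of the 3 was lower in KO in pairs 2 and 3 and higher in KO in pair 1. Tm7sf2, a sterol reductase that overlaps in function with another gene, Lbr, had 20.4, 19.7 and 18.7 FPKM in KO and 21.1, 17.4 and 21.4 FPKM in WT. Ebp, a sterol isomerase, had 17.4, 13.4 and 14.0 FPKM in KO and 27.0, 13.4 and 9.10 FPKM in WT, with a wider spread among WT libraries than between genotypes. Sc5d, a sterol desaturase, had 40.6, 40.6 and 26.9 FPKM in KO and 44.5, 30.5 and 34.8 FPKM in WT, and Dhcr7, a reductase at the end of the pathway, had 102, 65.7 and 70.7 FPKM in KO and 113, 83.7 and 69.4 FPKM in WT. The genotypes overlapped in each of these genes.

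The levels of the sterol enzymes ran with the replicate number. Over coding bases 13 of the 18 sterol enzymes had both replicate 1 libraries above the other 4 libraries (Hmgcs1, Mvk, Pmvk, Mvd, Idi1, Fdps, Fdft1, Sqle, Lss, Msmo1, Hsd17b7, Ebp and Dhcr7), against 18.2% of all tested genes, and none had both below, against 19.4%. Over all unshared bases the count was 11 of 18, against 18.7% of all genes. Summed over the 18 enzymes, coding FPKM was 2432, 1822 and 1748 in KO replicates 1 to 3, against 2559, 1991 and 2029 in WT replicates 1 to 3. WT replicate 1 was the highest library for 12 of the 18, against 3449 of all 11908 genes, and KO replicate 3 the lowest for 9, against 1510 of all genes. Within the pairs, 13, 13 and 14 of the 18 were lower in KO in pairs 1, 2 and 3, with median log2 differences of −0.07, −0.12 and −0.18. Without both replicate 1 libraries the median over all unshared bases was −0.15, as with them.

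Markers of other cells and of cycling also differed between replicate numbers or genotypes. The proliferation marker Mki67 had 14.2, 71.3 and 73.7 FPKM in KO replicates 1 to 3, against 12.1, 67.4 and 68.4 FPKM in WT replicates 1 to 3, low in both replicate 1 libraries. Top2a, Ccnb1, Cdk1 and Aurkb were also lowest in both replicate 1 libraries, but Mcm2 was highest there, with 86.4, 77.2 and 76.4 FPKM in KO and 93.7, 83.8 and 68.3 FPKM in WT, and Mcm5 and Pcna did not follow the number. The 8 proliferation markers summed to 536, 693 and 776 FPKM in KO and to 549, 695 and 593 FPKM in WT, with a median log2 difference between genotypes of −0.001 and 4 of 8 lower in KO. The 8 astrocyte markers summed to 252, 436 and 719 FPKM in KO and to 195, 543 and 554 FPKM in WT, lowest in both replicate 1 libraries. Much of that sum was Gfap, with 57.9, 178 and 401 FPKM in KO and 32.1, 263 and 268 FPKM in WT. Sox9 was instead lowest in both replicate 3 libraries, with 42.9, 35.9 and 25.6 FPKM in KO and 38.4, 39.2 and 25.5 FPKM in WT. S100b, Gja1 and Fgfr3 did not have both replicate 1 libraries lowest either. The 8 neuron markers summed to 130, 126 and 106 FPKM in KO and to 230, 127 and 117 FPKM in WT. In WT replicate 1 Stmn2 had 68.0 FPKM, against 10.1 to 19.7 FPKM in the other libraries. Nefm had 34.5 FPKM there, against 4.76 to 7.91 FPKM elsewhere. Snap25 was lowest in that library, at 3.99 FPKM, and Dcx was highest in WT replicate 3. Of the neuron markers 7 of 8 were lower in KO, with a median log2 difference of −0.28 (8 of 8 and −0.35 over coding bases), and 5 of 8 were lower in all 3 pairs. Of the 12 OPC markers 8 were lower in KO, with a median of −0.12 (7 and −0.08 over coding bases). None of these markers passed the adjusted threshold. The 9 markers of maturing oligodendrocytes summed to 545, 411 and 493 FPKM in KO and to 513, 546 and 520 FPKM in WT. The part of these cell mixtures in the sterol gene levels was not tested. In such bulk libraries fewer cells of a type and less RNA per cell cannot be told apart.

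**Figure D4:**
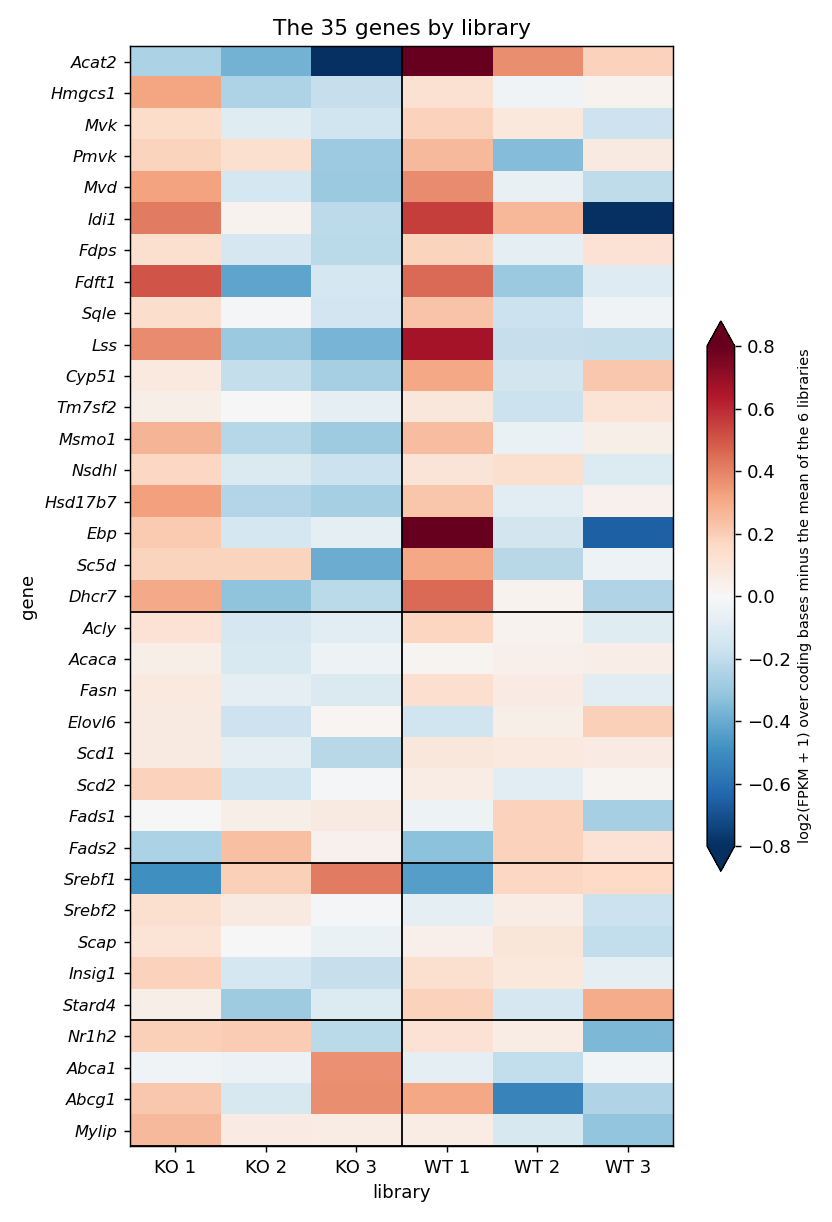
Log2(FPKM + 1) over coding bases of each of the 35 genes in each library, minus the mean of its 6 libraries, with KO libraries on the left and WT libraries on the right. The sterol enzymes are mostly red in both replicate 1 columns (13 of 18 above the other 4 libraries), Srebf1 is blue in both, and Acat2 alone has 3 blue KO cells beside 3 red WT cells.

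In fatty acid synthesis, Acly makes acetyl-CoA from citrate, Acaca carboxylates it to malonyl-CoA and Fasn builds palmitate. Over coding bases Acly had 173, 145 and 150 FPKM in KO and 179, 162 and 149 FPKM in WT, Acaca had 31.9, 28.4 and 30.0 FPKM in KO and 31.3, 31.8 and 32.0 FPKM in WT, and Fasn had 147, 132 and 129 FPKM in KO and 153, 146 and 132 FPKM in WT. These 3 genes were lower in KO by 0.07 to 0.08 on the log2 scale over coding bases, with overlapping groups. Over all unshared bases Acaca had 30.3, 26.9 and 28.6 FPKM in KO, just below the 30.9, 30.6 and 30.5 FPKM of WT.

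Of the enzymes that lengthen and desaturate fatty acids, Scd1, a stearoyl-CoA desaturase (chromosome 19, 44394455 to 44407879, minus strand), had 121, 109 and 98.6 FPKM in KO, against 126, 124 and 122 FPKM in WT. The KO libraries lay below the WT libraries by a narrow margin, with a log2 difference of −0.18 ± 0.12 (SE; limma), and over coding bases the groups had 124, 111 and 101 FPKM in KO and 126, 124 and 123.2 FPKM in WT, where they overlapped. Elovl6, which lengthens palmitate, had 37.0, 22.8 and 35.002 FPKM in KO, against 37.6, 36.5 and 39.9 FPKM in WT, a log2 difference of −0.29 ± 0.20 (SE; limma). The lowest library was KO replicate 2, where 68.7% of a last exon of 5436 nt was assembled, and over coding bases the difference was −0.06 ± 0.14. Fads2 had 159, 169.6 and 144 FPKM in KO, against 150.5, 214 and 205 FPKM in WT, a log2 difference of −0.25 ± 0.18 (SE; limma), and 0.02 ± 0.20 over coding bases, where it had 159, 225 and 195 FPKM in KO and 151, 215 and 205 FPKM in WT. Fads2 lies next to Fads1 on chromosome 19, and in the opposite sense to the sterol enzymes both replicate 1 libraries were its lowest over coding bases.

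For Scd2 and Fads1 the value over all unshared bases moved with where the assembly stopped. Scd2 had 715, 625 and 675 FPKM in KO, against 681, 189 and 694 FPKM in WT, and 1.01% of the last exon of 3864 nt was assembled in WT replicate 2. Over coding bases that library had 656 FPKM, and Scd2 had 793, 625 and 694 FPKM in KO and 729, 656 and 708 FPKM in WT, a log2 difference of 0.01 ± 0.17. Fads1, the partner desaturase of Fads2, had 58.0, 127 and 129 FPKM in KO, against 119, 62.8 and 44.9 FPKM in WT. Its last exon of 2004 nt was assembled to 8.58% in KO replicate 1 and to 4.64% and 3.04% in WT replicates 2 and 3, and to at least 99.95% in the other 3 libraries. Over coding bases the Fads1 groups overlapped closely, with 123.4, 127 and 129 FPKM in KO and 119.7, 140.3 and 102 FPKM in WT (log2 difference 0.08 ± 0.15). Of the 35 genes, 15 had less than 50% of the last exon assembled in some libraries and more in others. Introns spliced in the assembled transcripts were found nearly throughout, with 440 to 444 of the 455 introns of the principal transcripts in KO libraries and 426 to 444 in WT libraries. In a given library, 3 to 9 of the 35 genes had less than 50% of the last exon.

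None of the regulators of the pathway passed the test. Srebf1 encodes SREBP-1 from alternative starts (chromosome 11, 60199089 to 60222581, minus strand). It had 21.5, 35.03 and 41.0 FPKM in KO, against 19.9, 34.5 and 34.2 FPKM in WT, a log2 difference of 0.13 ± 0.31 (SE; limma), lowest in both replicate 1 libraries and higher in KO in each of the 3 pairs. Over coding bases Srebf1 had 21.6, 35.3 and 41.4 FPKM in KO, against 22.4, 34.7 and 34.5 FPKM in WT, higher in KO in 2 of 3 pairs, and with FPKM summed over its transcripts the log2 difference was −0.48. Transcripts with the downstream first exon (chromosome 11, 60210336 to 60210465), which makes the SREBP-1c form, summed to 14.3, 30.4 and 42.6 FPKM in KO, against 20.8, 27.5 and 26.4 FPKM in WT (two-sided exact permutation test, p = 0.7). Transcripts with the upstream first exon (60220453 to 60220604), which makes SREBP-1a, summed to 7.68, 5.80 and 0 FPKM in KO, against 7.01, 7.97 and 8.82 FPKM in WT (two-sided exact permutation test, p = 0.2, where 0.1 is the smallest p that 3 against 3 libraries can give). Both first exons were assembled in 5 of the 6 libraries, and in KO replicate 3 the upstream one was not, so that the SREBP-1c form held 65.1%, 84.0% and 100% of this sum in KO and 74.8%, 77.5% and 74.9% in WT.

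Srebf2, the gene of SREBP-2, had 109, 105 and 98.9 FPKM in KO and 94.3, 104 and 88.2 FPKM in WT over coding bases, higher in KO in each pair with overlapping groups (log2 difference 0.13 ± 0.12). Over all unshared bases its difference was −0.03 ± 0.15, and WT replicate 1 alone had 100% of the last exon of 1683 nt, against 5.47% to 26.0% in the other 5 libraries. Scap, the escort of the SREBPs, had 37.8, 34.96 and 33.7 FPKM in KO and 36.0, 37.5 and 30.4 FPKM in WT over coding bases. Insig1, which retains that escort and is itself a sterol-sensitive target, had 98.4, 78.6 and 76.2 FPKM in KO, against 94.5, 85.9 and 82.4 FPKM in WT, a log2 difference of −0.06 ± 0.14 (SE; limma). Stard4, a cytosolic sterol carrier, had 27.3, 20.4 and 23.1 FPKM in KO, against 29.0, 22.8 and 31.0 FPKM in WT, a log2 difference of −0.21 ± 0.17 (SE; limma). Stard4 was lower in KO in each pair under both gene values, with overlapping groups.

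The 4 LXR genes were each higher in KO in all 3 pairs over all unshared bases, a pattern that 13.6% of all tested genes shared, and 3 of the 4 over coding bases (14.4%). None passed the test. Abcg1 (chromosome 17, 31057675 to 31117988, plus strand) had 2.66, 1.87 and 2.81 FPKM in KO, against 2.27, 1.39 and 1.52 FPKM in WT, a log2 difference of 0.34 ± 0.20 (SE; limma). Its last exon of 3932 nt was assembled to 89.3%, 78.9% and 92.6% in KO, against 43.5%, 73.7% and 40.1% in WT. Over coding bases Abcg1 had 4.43, 3.28 and 5.07 FPKM in KO, against 4.80, 2.24 and 2.97 FPKM in WT. There it was higher in KO in 2 of 3 pairs (log2 difference 0.31 ± 0.26). Mylip (chromosome 13, 45389742 to 45412022, plus strand) had 3.88, 3.26 and 3.41 FPKM in KO, against 3.54, 2.71 and 2.36 FPKM in WT, a log2 difference of 0.23 ± 0.16 (SE; limma). Both genes are low, so that on the log2(FPKM + 1) scale their differences are understated.

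Abca1, the exporter that loads sterol onto lipoproteins (chromosome 4, 53030787 to 53159895, minus strand), had 14.2, 13.1 and 19.0 FPKM in KO, against 12.5, 12.6 and 14.3 FPKM in WT, a log2 difference of 0.20 ± 0.16 (SE; limma). KO replicate 3 was the highest library and the others differed little. Nr1h2, the gene of LXR beta (chromosome 7, 44549616 to 44553951, minus strand), had 27.6, 26.5 and 18.9 FPKM in KO, against 24.2, 23.2 and 17.6 FPKM in WT, a log2 difference of 0.16 ± 0.19 (SE; limma). In both genotypes replicate 3 had the lowest Nr1h2.

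Microglia markers ran the same way as the LXR genes. All 9 tested markers of microglia were higher in KO, with a median log2 difference of 0.83, and 5 of 9 had all KO libraries above all WT libraries, against 2.03% of all tested genes, and the 10 markers summed to 118, 139 and 212 FPKM in KO, against 94.2, 71.4 and 93.1 FPKM in WT. The complement gene C1qa had 13.2, 13.1 and 34.8 FPKM in KO, against 8.87, 6.11 and 8.12 FPKM in WT, and no microglia marker passed the adjusted threshold. KO replicate 3 was the highest library for the microglia sum, for Abca1 and for Abcg1, whereas Nr1h2 and Mylip were highest in KO replicate 1 and Nr1h2 had its lowest KO value in KO replicate 3. The part of microglia in the LXR gene levels was not tested. Endothelial markers summed to 19.9, 12.04 and 6.08 FPKM in KO and to 17.9, 5.53 and 6.18 FPKM in WT, and markers of fibroblasts and pericytes to 43.0, 42.1 and 88.0 FPKM in KO and to 41.1, 66.0 and 69.7 FPKM in WT.

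**Figure D5:**
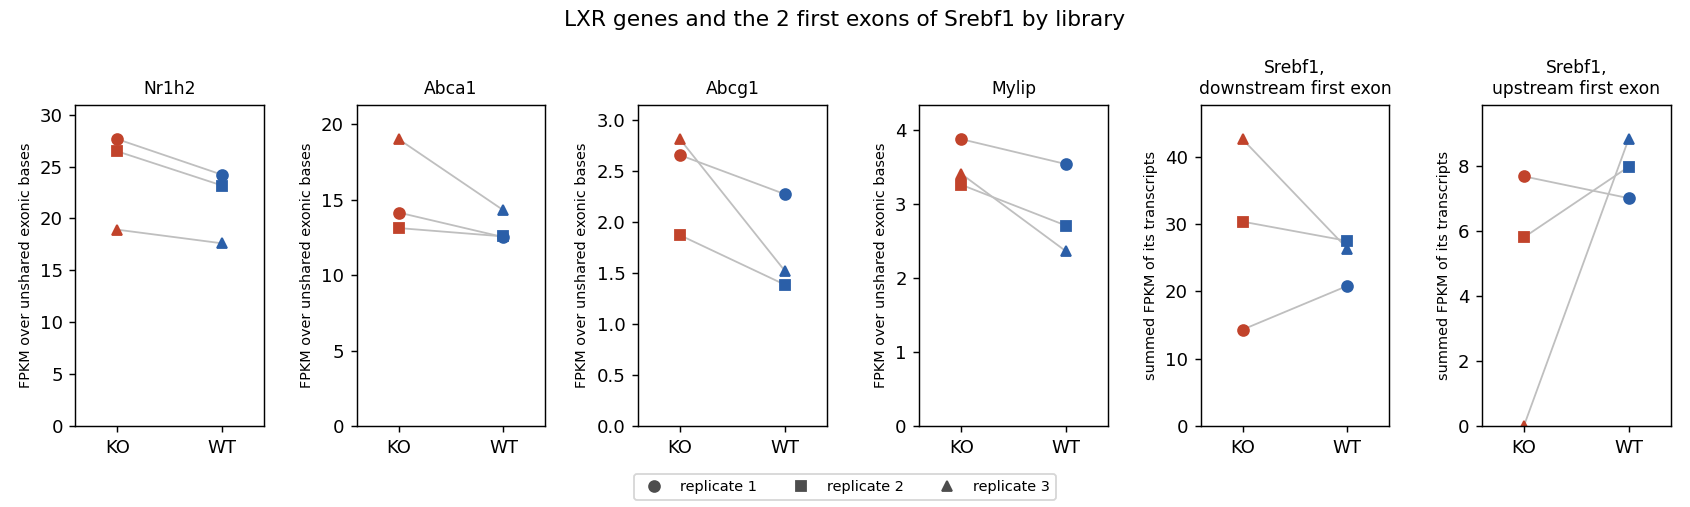
FPKM per library of the 4 LXR genes over all unshared exonic bases and summed FPKM of transcripts with each first exon of Srebf1, KO on the left and WT on the right, with lines joining libraries of the same number. The lines of the 4 LXR genes slope down to WT in all 3 pairs, and the upstream first exon of Srebf1 is at 0 in KO replicate 3 only.

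Other genes around these pathways gave 0 calls as well. Of 13 enzymes of the isoprenoid branches, which take intermediates of the sterol pathway into prenylation, dolichol and ubiquinone, 7 were lower in KO, with a median log2 difference of −0.01. The smallest p values in that list were those of Pdss1, of ubiquinone synthesis, with a log2 difference of 0.20 ± 0.15, and of Rce1, a protease of prenylated proteins, with 0.64 ± 0.49 (SE). Of 8 further factors of SREBP processing and sterol reduction, 6 were lower, with a median of −0.02. In that list Syvn1, a ubiquitin ligase of the endoplasmic reticulum, had 16.1, 13.2 and 11.9 FPKM in KO, against 11.8, 8.96 and 9.45 FPKM in WT, a log2 difference of 0.41 ± 0.16 (SE; limma adjusted p = 0.9999). Mbtps2, the protease that makes the second cut in SREBPs, had a log2 difference of −0.37 ± 0.23, but −0.15 over coding bases. Its KO replicate 3 was the lowest library over all unshared bases (3.08 FPKM) and the highest over coding bases (8.86 FPKM).

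Of 22 tested genes among 23 other fatty acid genes, 16 were lower in KO, with a median of −0.11, and over coding bases 16 of 22, with a median of −0.08. Hacd2, a dehydratase of fatty acid lengthening, had 5.80, 5.70 and 5.59 FPKM in KO, against 6.81, 6.60 and 8.21 FPKM in WT, a log2 difference of −0.29 ± 0.12 (SE; limma adjusted p = 0.9999), but 0.42 over coding bases. Over coding bases Hacd2 had 26.1, 25.9 and 25.4 FPKM in KO, against 27.7, 29.6 and 8.21 FPKM in WT. Only WT replicate 3 lay below the KO libraries there. Fads3, the neighbour of Fads1 and Fads2, had 5.67, 8.08 and 21.4 FPKM in KO, against 5.83, 6.58 and 0 FPKM in WT, listed at 0 in WT replicate 3 only. Of 21 tested genes among 23 of LXR control and sterol transport, 9 were lower, with a median of 0.05. There Lipa, the lysosomal lipase of cholesteryl esters, had a log2 difference of 0.40 ± 0.22, and Nr1h3, the gene of LXR alpha, had 1.22, 0.915 and 2.79 FPKM in KO, against 0.649, 0.884 and 1.16 FPKM in WT, both highest in KO replicate 3. The copies Idi2 and Scd3 were listed at 0 in all 6 libraries and Scd4 below 1 FPKM.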

How the data were processed

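RNA was sequenced from A2B5-selected OPCs in 3 KO and 3 WT libraries, whose group and number were read from the titles. The submitters' processing notes list Cufflinks 2.2.1 and its Cuffdiff 2.2.1, TopHat2 2.1.1 and FastQC, and mm10 as the build. For every library the authors deposited an assembly that lists exons and an FPKM for each transcript without gene names. Transcripts were therefore matched by position to GENCODE M21, which has the same build. The sources used here do not give whether the libraries were stranded. No read counts were used, and relative depth was estimated from the coverage that 1 FPKM stands for, so no counting interval is given.

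Transcripts of 300 nt or more, lying on the gene's strand or carrying no strand, contributed their FPKM at each exonic base of a gene outside all other genes, and the mean over these bases (200 or more) was the gene value. Genes whose mean reached 1 FPKM were tested on log2(FPKM + 1) in limma 3.58.1 under R 4.3.3, two-sided, with a mean trend and with genotype alone in the model, at a Benjamini-Hochberg adjusted p of 0.05 over all of them. This scale understates the change of low genes, and a 0 means that nothing was assembled. Exact permutation tests used scipy 1.17.1. The labels state no pairing by the numbers in the titles. Across genes, which are not independent replicates, the deviations from the group mean correlated at 0.369, 0.197 and 0.293 in same-numbered libraries and at −0.277 to 0.0234 in the others. Deviations from a group mean cancel within a genotype, so part of this contrast is built in. The members, the other gene lists and the tests were chosen with earlier results of these data known. All 35 members are described, with full statistics for those of each class with the smallest p. From each of the 4 other pathway lists the 2 genes with the smallest p are named, and copies of members are named for their shared sequence. Olig1, C1qa, Mki67, the other proliferation genes and the named astrocyte and neuron genes were picked with their values in view. The code was tested on simulated data first. Alternatives covered the gene value, the pseudocount, the filter, the scaling, the block, array weights and left-out libraries, and values over coding bases and over bases assembled in all 6 libraries were added after the data had been seen.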

Additional observations from a re-analysis of the deposited data

How the results depend on the processing

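None of the 35 genes was called under any alternative run. The 1 call over all genes became 0 with FPKM summed over transcripts, all exonic bases, a pseudocount of 0.1 or 5, a mean of 5 FPKM, the replicate block, bases assembled in all 6 libraries, or coding bases with the block. It became 2 with assembled bases only, 29 without both libraries numbered 1, and 1 to 17 with 1 library left out, the 17 without KO replicate 1. The replicate block changed no other call. Acat2 stayed lower in KO throughout. The median of the LXR genes was −0.0626 with summed FPKM, and that of the fatty acid enzymes ran between −0.1521 and −0.0526 with 1 library left out. Differences that turned sign, in log2 units (KO minus WT), were as follows. With summed FPKM they were Mvk −0.0869, Fads2 0.0187, Srebf1 −0.4841, Srebf2 0.139, Scap −0.0444, Abca1 −0.2264 and Mylip −0.1703. With assembled bases only they were Mvk −0.0645, Fdft1 0.0257, Fads2 0.0187 and Srebf2 0.1446. With array weights they were Mvk −0.0547, Sqle 0.0391, Tm7sf2 0.0009 and Scap −0.0034, and with quantile normalization Srebf2 0.0067. Without both libraries numbered 1 they were Sqle 0.0048, Ebp 0.2037 and Srebf2 0.0785. Over bases assembled in all 6 libraries, chosen after seeing the data, they were Mvk −0.0848, Idi1 −0.182, Scd2 −0.1008, Fads2 0.0187 and Srebf2 0.1453. Over coding bases, also chosen after seeing the data, with or without the replicate block, they were Mvk −0.0689, Fads2 0.0187 and Srebf2 0.1276. With 1 library left out in turn, Mvk ran between −0.1771 and 0.1378, Pmvk between −0.235 and 0.3137, Mvd between −0.2565 and 0.0587, Idi1 between −0.169 and 1.3228, Fdft1 between −0.3709 and 0.0197, Sqle between −0.1327 and 0.0779, Ebp between −0.4431 and 0.2725, Dhcr7 between −0.3138 and 0.0257, Scd2 between −0.0362 and 0.8981, Srebf1 between −0.1248 and 0.3924, Srebf2 between −0.1411 and 0.0958, Scap between −0.0404 and 0.1044, and Insig1 between −0.1748 and 0.0076. The cause of these changes was not tested. Without read counts, the depth behind single values is unknown.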
